A study of Mus musculus with 28 samples.

Results

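The interferon-induced transmembrane (Ifitm) family was followed through irradiated mouse ovaries by 4 of its genes, Ifitm1, Ifitm2, Ifitm3 and Ifitm10. The members were chosen by their pattern in these data, to set Ifitm10 in oocytes against Ifitm3 in somatic cells, so the wild-type irradiation contrast and its difference between genotypes are described here for Ifitm10 and Ifitm3 without a test. All 4 genes were found among the 44674 genes of the bulk table and among the 31053 genes of the single-cell matrices, and all 4 were among the 26790 bulk genes with enough counts to be tested.

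The study asked which transcriptional responses to DNA damage in the juvenile ovary require checkpoint kinase 2 (CHEK2), and in which cells they arise. Bulk mRNA was sequenced from paired ovaries of 24 females of 7 to 9 days of age, in 4 groups of 6. Wild-type (WT) C57BL/6J females and Chek2-/- females, which carry the tm1b knockout allele in every cell, received either a sham treatment (non-IR) or 0.5 Gy of whole-body gamma radiation from a caesium source (IR). Ovaries were taken 6 h later. The 4 single-cell libraries, 1 for each of the same conditions, were made by droplet capture from the pooled ovaries of 4 females of 7 days of age after enzymatic dissociation. A single-cell library has no replicate of its condition, and nothing in the labels says that bulk replicates came from separate litters.

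IFITM proteins are small membrane proteins that sit in the plasma membrane and in endosomes, where the interferon-inducible members hinder the fusion of virus and host membranes. Ifitm1, Ifitm2 and Ifitm3 lie side by side and are classical interferon-stimulated genes: interferon receptors signal through JAK kinases, and the response reaches genes that carry an interferon-stimulated response element (ISRE). Ifitm3, also known as fragilis, is a marker of germ cell specification in the mouse embryo. Ifitm10 lies apart from that cluster, and no antiviral role is established for it. Primordial oocytes are eliminated by low doses of radiation, a death that runs through CHEK2 and TAp63.

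In GRCm38, Ifitm2 occupied chr7:140954837-140955987 on the minus strand, Ifitm1 chr7:140967221-140969825 on the plus strand and Ifitm3 chr7:141009586-141010770 on the minus strand. Ifitm10 lay further along the same chromosome, at chr7:142325837-142373753 on the minus strand. Bases upstream of an annotated start are shown for each member, so that the letters searched for motifs can be read. The stretches of Ifitm1 and of the inner Ifitm10 start precede an inner annotated start and lie within the span of the gene. They come from RefSeq (GRCm38.p6), run 5′ to 3′ on the strand of the gene and stop before any start of a coding transcript that GENCODE places in the stretch. Capitals mark matches to an ISRE (GAAANNGAAA) or to a p53 half-site, searched on both strands.
Ifitm1, chr7:140967826-140968027, plus strand: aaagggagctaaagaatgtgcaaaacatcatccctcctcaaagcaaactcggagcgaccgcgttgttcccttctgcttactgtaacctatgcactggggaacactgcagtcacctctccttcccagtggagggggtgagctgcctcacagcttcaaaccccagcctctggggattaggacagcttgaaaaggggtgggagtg
Ifitm2, chr7:140955988-140956211, minus strand: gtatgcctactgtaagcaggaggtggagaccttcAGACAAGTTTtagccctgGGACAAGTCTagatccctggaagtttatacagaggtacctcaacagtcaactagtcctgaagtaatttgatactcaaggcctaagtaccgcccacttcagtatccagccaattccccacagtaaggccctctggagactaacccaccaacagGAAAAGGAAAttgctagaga
Ifitm3, chr7:141010771-141010994, minus strand: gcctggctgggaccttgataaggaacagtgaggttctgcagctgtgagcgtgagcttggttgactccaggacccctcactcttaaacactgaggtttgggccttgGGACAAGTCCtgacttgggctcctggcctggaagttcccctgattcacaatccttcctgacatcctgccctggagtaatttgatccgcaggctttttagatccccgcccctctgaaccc
Ifitm10, inner start, chr7:142372442-142372577, minus strand: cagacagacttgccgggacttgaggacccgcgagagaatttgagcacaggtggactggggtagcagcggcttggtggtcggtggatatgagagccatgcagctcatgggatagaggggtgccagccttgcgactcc
Ifitm10, outer start, chr7:142373754-142373996, minus strand: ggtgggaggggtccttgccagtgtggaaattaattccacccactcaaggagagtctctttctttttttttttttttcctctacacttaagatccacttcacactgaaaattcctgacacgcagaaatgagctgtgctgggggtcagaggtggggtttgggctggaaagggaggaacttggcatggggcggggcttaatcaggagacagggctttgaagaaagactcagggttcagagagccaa

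Within 250 bases upstream of the RefSeq start, Ifitm2 held the only ISRE match among the windows of the 4 members, together with a pair of p53 half-sites that do not overlap it. Ifitm3 held 1 half-site, and the windows of Ifitm1 and of the 3 annotated starts of Ifitm10 held none of the motifs searched. The bases before the outermost Ifitm1 start, at position 140967221, were not searched. An ISRE match was present in 2.98% of 32851 promoter windows of that length, a p53 half-site in 7.13%, and a pair of half-sites separated by at most 13 bases in 0.0639%. A GAS element (TTCNNNGAA), the other interferon motif searched, was found in 7.02% of windows and in none of the members. These matches are letters in a window and are not measured binding.

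Bulk libraries held 17824920 to 32605519 assigned reads. The targeted gene Chek2 was 22.4 CPM (counts per 1000000 scaled reads) in WT non-IR and 3.75 in Chek2-/- non-IR ovaries, a log2 difference of −2.58 (SE 0.10, edgeR adjusted p = 7.45e-15). Nnt, which carries a partial deletion in C57BL/6J, was 66.8 CPM in Chek2-/- against 32.4 CPM in WT non-IR ovaries, so strain background and loss of Chek2 cannot be told apart in any genotype comparison. Both Chek2-/- libraries numbered 6 stood apart: summed oocyte markers were 1170 CPM in the non-IR and 1320 CPM in the IR library, against group medians of 2210 and 2200 CPM, and summed epithelial markers were the highest of their groups at 780 and 654 CPM. Neutrophil markers reached 1300 CPM in WT IR library 3 and 1330 CPM in Chek2-/- IR library 2, against group medians of 0.831 and 0.833 CPM. In whole ovaries, fewer cells of a type and less RNA per cell cannot be told apart.

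Ifitm10 was high in 1 bulk group. It ranged from 0.364 to 1.07 CPM in WT non-IR ovaries (median 0.72), and from 10.5 to 21.7 CPM in WT IR ovaries (median 12.6). In Chek2-/- ovaries it ranged from 0.653 to 1.44 CPM without irradiation (median 0.808) and from 0.727 to 1.15 CPM after it (median 0.824). Every WT IR library lay above every other library, and the other 3 groups overlapped. The WT means were 0.761 ± 0.263 and 14.0 ± 4.23 CPM (SD, n = 6 each), an 18.4-fold ratio of means and a log2 change of 4.18 (SE 0.24). In the same contrast 9 oocyte markers had log2 changes from −0.59 to −0.03 (median −0.25). Of these, 1 was called lower, where 0.885% of all genes were. Their median in Chek2-/- ovaries was 0.02.

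**Figure D1:**
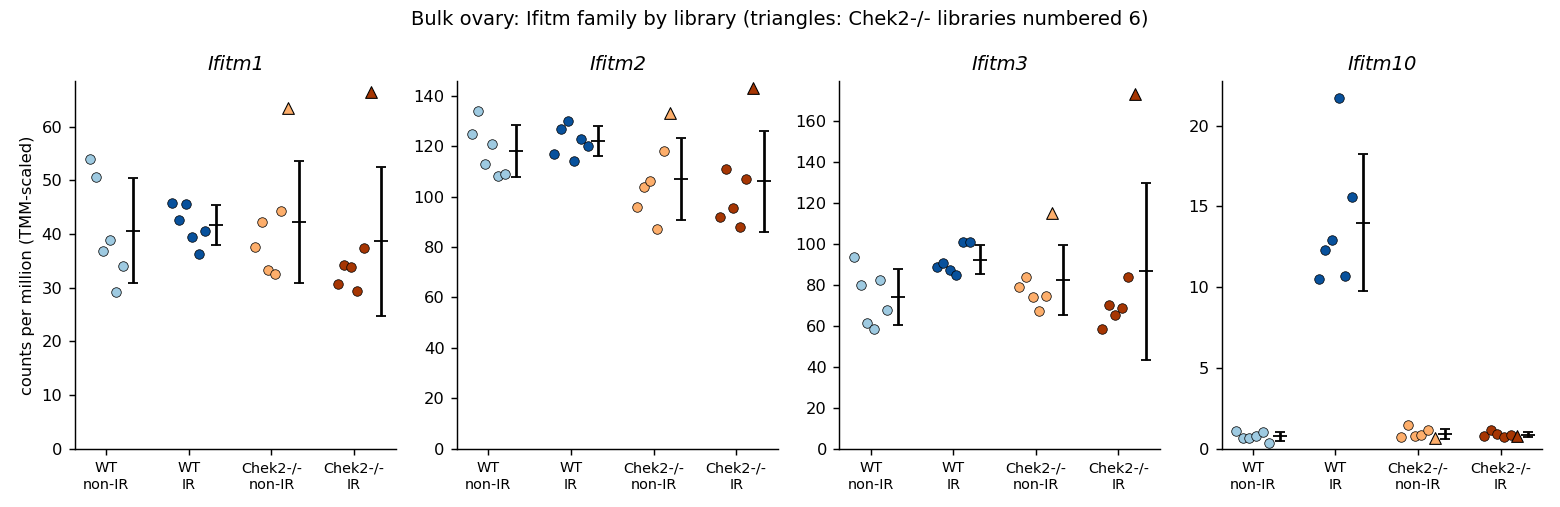
CPM of each Ifitm gene (y axis, linear, one scale per gene) in the 24 bulk libraries by group (x axis), with points for libraries, triangles for the Chek2-/- libraries numbered 6, and the mean with SD (n = 6) at the right of each group. Ifitm10 is separated in WT IR ovaries, from 10.5 to 21.7 CPM, while the other 3 genes overlap between groups, and within each Chek2-/- group their highest value is the library numbered 6.

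In Chek2-/- ovaries the log2 change of Ifitm10 was −0.11 (SE 0.24, edgeR adjusted p = 1), in a contrast where 3 of 26790 genes, or 0.0112%, passed an adjusted p of 0.05. The difference of the WT and the Chek2-/- change was 4.29 on the log2 scale (SE 0.33), which is a description for this gene. For scale, 1.03% of all genes passed the test of that difference and 2.41% passed the test of irradiation in WT ovaries, with 1.53% of all genes called higher. Without irradiation, Ifitm10 differed by 0.28 between the genotypes (SE 0.24, adjusted p = 0.558), in a contrast that called 5.34% of all genes.

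Ifitm3 was abundant in every bulk library and shifted far less. It ranged from 58.5 to 93.6 CPM in WT non-IR (median 73.7) and from 84.6 to 101 CPM in WT IR ovaries (median 89.8). The WT groups overlapped, with 2 of 6 IR libraries above every non-IR library. Their means were 73.9 ± 13.6 and 92.2 ± 7.04 CPM (SD, n = 6 each), a log2 change of 0.32 (SE 0.20, 95% interval −0.06 to 0.70).

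In Chek2-/- ovaries Ifitm3 ranged from 67.2 to 115 CPM without irradiation (median 76.6) and from 58.6 to 173 CPM after it (median 69.4). The highest value of each group came from the library numbered 6. The log2 change was 0.07 (SE 0.20, adjusted p = 1), and −0.13 when both libraries numbered 6 were left out. Without them the WT change was 0.33 with an SE of 0.10, and the difference between genotypes was 0.45 in place of 0.24. The WT libraries were the same in both fits. The libraries numbered 6 were left out after seeing the data and held the highest Ifitm3 values, so these values are a description and not a test.

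Ifitm1 and Ifitm2 did not pass any bulk test. Ifitm1, like its neighbours a restriction factor for enveloped viruses, averaged 40.6 ± 9.75 CPM in WT non-IR and 41.7 ± 3.67 CPM in WT IR ovaries, a log2 change of 0.04 (SE 0.19, 95% interval −0.32 to 0.40, edgeR adjusted p = 0.987). Ifitm2 averaged 118 ± 10.3 and 122 ± 5.95 CPM, a log2 change of 0.04 (SE 0.10, 95% interval −0.15 to 0.24, adjusted p = 0.959). In Chek2-/- ovaries the changes were −0.13 for Ifitm1 and −0.02 for Ifitm2 (adjusted p = 1 for each), and the tests of the difference between genotypes gave adjusted p = 0.952 and 0.977. Without irradiation the genotypes differed by 0.06 in Ifitm1, −0.14 in Ifitm2 and 0.15 in Ifitm3 (adjusted p = 0.904, 0.445 and 0.718).

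Per kilobase of transcript, the WT non-IR order was Ifitm2 at 181 ± 15.7 CPM per kb, Ifitm3 at 109 ± 20.1, Ifitm1 at 46.0 ± 11 and Ifitm10 at 0.923 ± 0.319 (SD, n = 6). The SDs of neighbours in that order did not overlap. In WT IR ovaries Ifitm10 was 16.9 ± 5.14 CPM per kb and stayed the lowest of the 4. The coding sequences of Ifitm1, Ifitm2 and Ifitm3 are alike, so reads of 1 gene may have been assigned to another, and the values of these 3 are uncertain to that extent. Transcript models Gm45717 and Gm49369, which overlap Ifitm2 and Ifitm10, had no row of their own in the bulk table.

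Across the 24 bulk libraries, Ifitm1, Ifitm2 and Ifitm3 moved together. Pearson's r on log2(CPM + 1) was 0.80 for Ifitm1 with Ifitm2, 0.74 for Ifitm1 with Ifitm3 and 0.66 for Ifitm2 with Ifitm3, and 0.88, 0.77 and 0.75 after the group means were removed. Ifitm10 had r of 0.11 to 0.32 with the other members, and −0.04 to −0.03 within groups. The points share libraries, depth and cell makeup.

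The genes most like each member over the same 24 libraries, among 15955 with a mean of at least 1 CPM, differed between members. Group means were kept in these r values. For Ifitm10, r is therefore high for any gene that is high in the WT IR group alone, and likeness within groups was not computed. For Ifitm10 they were Plch2, a phospholipase C, Ankrd65, 1700007K13Rik and 2810029C07Rik (r = 0.99 each), and Mdm2, the p53 ubiquitin ligase (r = 0.98). For Ifitm3 they were Syt12, the metalloproteinase inhibitor Timp1, the lysosomal gene Dram1, the RNA sensor Tlr3 and Tpm3 (0.86 to 0.89). For Ifitm2 they were Ctsz, Anxa6, Capzb and the matrix genes Sparc and Bgn (0.90 to 0.91). For Ifitm1 they were the zinc transporter Slc39a1, Emp3, S100a11, Nectin2 and ENSMUSG00000052429 (0.86 to 0.90).

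Chromosomal neighbours of the cluster and of Ifitm10 were measured in the same fit. Of 5 protein-coding genes on each side of the Ifitm1, Ifitm2 and Ifitm3 cluster, Pkp3, a desmosome component, rose in WT IR ovaries from 0.812 to 4.94 CPM (log2 2.60, SE 0.26, edgeR adjusted p = 3.24e-07) and had a log2 change of −0.33 in Chek2-/- ovaries (adjusted p = 1). The difference between genotypes was 2.93 for Pkp3 (adjusted p = 3.64e-05). Nlrp6, an inflammasome sensor, fell from 1.16 to 0.126 CPM in WT IR ovaries (log2 −3.08, adjusted p = 0.000244). In Chek2-/- ovaries Nlrp6 was 2.43 and 1.31 CPM (log2 −0.89, SE 0.38, adjusted p = 1), and the difference between genotypes was −2.19 (adjusted p = 0.108). These were the 2 of 10 neighbours of the cluster that passed in WT ovaries, where 2.41% of all genes did. Ifitm5, the bone-restricted member next to Ifitm2, was 0.874 and 0.928 CPM in WT non-IR and IR ovaries (adjusted p = 0.937), and Ifitm6 was 0.563 ± 0.159 and 1.45 ± 2.39 CPM (SD, n = 6 each, edgeR adjusted p = 0.637), in a WT IR group that includes the library with high neutrophil markers, whose part was not tested. Beside Ifitm10, the lysosomal protease Ctsd was 252 and 254 CPM (adjusted p = 0.996) and Lsp1 103 and 106 CPM (adjusted p = 0.980), and none of the 5 tested neighbours passed, a count near that background. All 5 lie on one side of Ifitm10, and the 5 on the other side were not tested.

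Relatives and modifiers of the family mostly did not pass the test. Of 10 tested genes of the wider Ifitm and dispanin family, 1 rose in WT IR ovaries, where 1.53% of all genes did: Prrt1, a synaptic membrane protein, from 0.757 to 1.28 CPM (log2 0.76, SE 0.18, edgeR adjusted p = 0.0171). The median change of these 10 was 0.16, against 0 for all genes. None of 8 genes that modify IFITM proteins passed, among them the palmitoyltransferase Zdhhc20 (0.06), the ubiquitin ligase Nedd4 (−0.02), the methyltransferase Setd7 (−0.02) and the tyrosine kinase Fyn (−0.08). Of these 8, 1 had an unadjusted p under 0.05, near the 11.4% of all genes that did, and DESeq2 and limma-voom called 0.

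Single cells were assigned to classes by clustering and by markers chosen with earlier results of these data known. After quality filters and removal of predicted doublets, 36408 cells remained. Oocyte-like cells numbered 193 in WT non-IR, 172 in WT IR, 75 in Chek2-/- non-IR and 138 in Chek2-/- IR libraries. Fibroblast-like (18567 cells) and granulosa-like cells (13172) were the largest classes, followed by smooth muscle-like (1279), epithelial-like (927), endothelial-like (766), pericyte-like (654), macrophage-like (254) and erythroid-like cells (137), while 74 cells stayed unnamed. The cluster called macrophage-like also led with the neutrophil genes S100a8 and S100a9. Between 83 and 127 cell barcodes of each library were shared with another library. Levels of single-cell classes are unique molecular identifiers (UMIs) of a gene per 1000000 UMIs of the class in a library, written as CPM, with exact Poisson 95% intervals that cover counting error only; with 1 library per condition no difference between conditions was tested.

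Ifitm10 RNA was concentrated in oocyte-like cells. These made up 1.59% of cells and held 90.4% of all Ifitm10 UMIs over the 4 libraries: 80.7% in WT non-IR, 93.6% in WT IR, 69.8% in Chek2-/- non-IR and 75.2% in Chek2-/- IR. Oocyte-like cells also hold more UMIs of all genes per cell, with a median of 105268.5. The level was 5.78 CPM in the WT non-IR library (167 UMIs, 95% interval 4.94 to 6.73), 117.8 in WT IR (1584 UMIs, 112.1 to 123.8), 5.06 in Chek2-/- non-IR (60 UMIs, 3.86 to 6.51) and 4.61 in Chek2-/- IR (82 UMIs, 3.66 to 5.72). The IR to non-IR ratio was 20.4 in WT oocyte-like cells (17.4 to 24.04) and 0.911 in Chek2-/- oocyte-like cells (0.645 to 1.29).

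Outside oocyte-like cells few Ifitm10 UMIs were counted. Pericyte-like cells had no Ifitm10 UMI in any library, where 3 UMIs would have been 1.72 to 2.40 CPM, and no named class other than oocyte-like exceeded 6.49 CPM in any library. That highest value was in macrophage-like cells, which held 3 to 5 Ifitm10 UMIs per library in 2 or 3 cells (5.26 to 6.49 CPM), near the floor of 3 UMIs. Their intervals were wide, such as 1.77 to 16.6 CPM in Chek2-/- IR, and held the level of non-irradiated oocyte-like cells. Smooth muscle-like cells held 16 UMIs in WT non-IR (3.54 CPM) and 7 in WT IR (1.93), while no UMI was seen in Chek2-/- non-IR. In WT IR, 0.663 CPM was measured in granulosa-like and 0.450 in fibroblast-like cells, against 0.124 and 0.0748 in WT non-IR.

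The low somatic levels were set beside those of other oocyte transcripts in somatic droplets. In WT IR, Ifitm10 in granulosa-like cells was 0.563% of its oocyte-like level, and 9 oocyte markers (among them Dppa3, Gdf9 and Zp3) were at 0.201 to 0.590% of theirs. In the other 3 libraries the Ifitm10 share was above that of every marker, at 2.15 to 3.001%, against 0.165 to 1.16% for the markers, from 9 to 12 Ifitm10 UMIs per library.

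**Figure D2:**
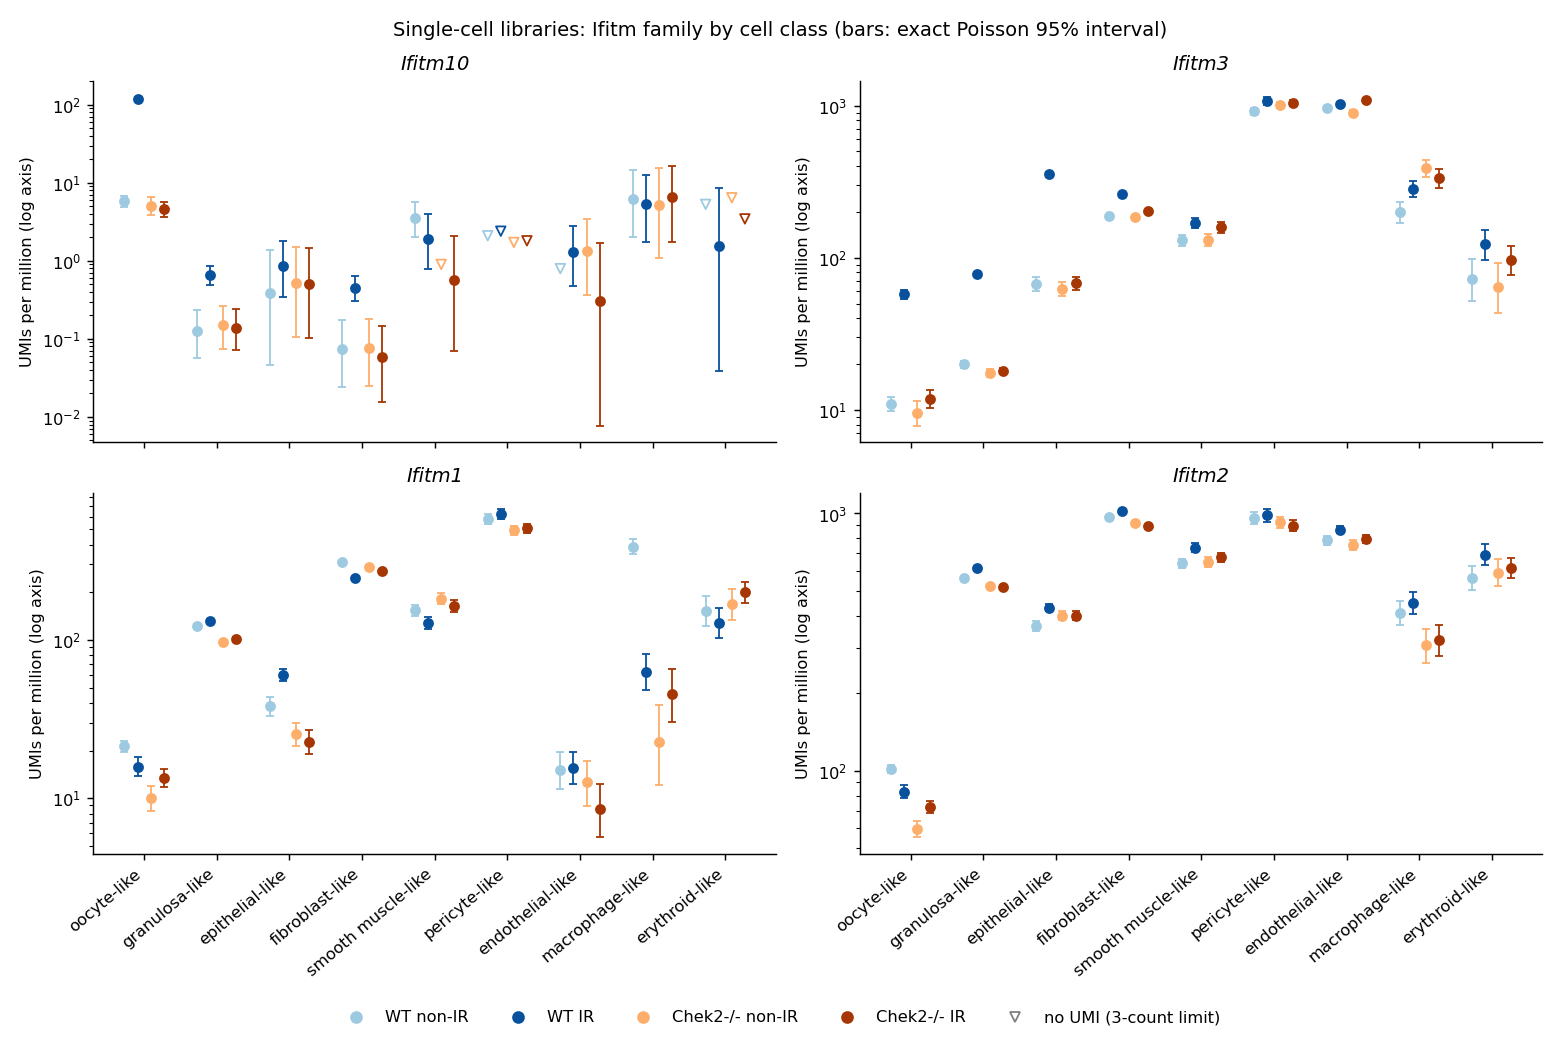
CPM (y axis, log scale) of each Ifitm gene by cell class (x axis) in the 4 single-cell libraries, with exact Poisson 95% intervals; open triangles mark a count of 0, drawn at the level that 3 UMIs would give. Ifitm10 stands out in the WT IR library in oocyte-like cells at 117.8 CPM, and Ifitm3 lies higher in that library than in the other 3 in oocyte-like, granulosa-like and epithelial-like cells.

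Oocyte-like cells of the WT IR library held less RNA than those of WT non-IR. Their median was 15869 UMIs per cell against 182009, and 80 of 172 had under 10000 UMIs. Among cells with over 100000 UMIs, an Ifitm10 UMI was present in 41 of 41 WT IR cells (120.5 CPM), in 70 of 122 WT non-IR cells (5.94), in 33 of 53 Chek2-/- non-IR cells (4.91) and in 43 of 79 Chek2-/- IR cells (4.42). Among cells under 10000 UMIs the level was 59.98 CPM in WT IR (15 UMIs, 33.6 to 98.9) and 6.92 in WT non-IR (1 UMI, 0.175 to 38.6).

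When every cell was thinned to 3000 UMIs and shallower cells were left out (7, 51, 2 and 21 cells in WT non-IR, WT IR, Chek2-/- non-IR and Chek2-/- IR), 28 of 121 WT IR oocyte-like cells kept an Ifitm10 UMI, or 23.1%. In WT non-IR 1 of 186 kept one, and in the Chek2-/- libraries 0 of 73 and 0 of 117 (exact binomial upper limits 4.93 and 3.10%). Pericyte-like cells thinned in the same way held one in 0 of 162 WT non-IR and 0 of 139 WT IR cells (upper limits 2.25 and 2.62%). Without thinning, 51.2% of WT IR and 38.3% of WT non-IR oocyte-like cells had an Ifitm10 UMI, in a range of 36.2 to 51.2% over the 4 libraries.

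Within the oocyte-like class, 8 subclusters were separated. One of them, with 60 cells and a median of 137018.5 UMIs per cell, came wholly from the WT IR library and was led by Slc6a8, Cst6 and Fermt3. It had 154 CPM of Ifitm10, with a UMI in 52 of 60 cells, and 50.6 CPM of Ifitm3. In the subcluster whose leading genes include Oosp1 and Eif4e1b, and whose growing oocyte markers summed to 10400 CPM, Ifitm10 was 23.7 in WT IR (17 cells, 58 UMIs) and 1.82 in WT non-IR (39 cells, 5 UMIs). The subclusters themselves were drawn on cells that include these differences, so the split is a description. The WT IR library supplied 1 cell in 80 to the subcluster led by Ttn and Tex15, and none to 2 others.

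Ifitm3 was spread over the somatic classes, with a different order. Over the 4 libraries it was 917 to 1073 CPM in pericyte-like and 900 to 1092 in endothelial-like cells, ranges that overlap. Next by mean came macrophage-like cells at 200 to 388 and fibroblast-like cells at 185 to 261, which also overlap, then smooth muscle-like cells at 130 to 169. Epithelial-like cells ranged from 62.3 to 353, erythroid-like cells from 64.3 to 122, granulosa-like from 17.5 to 78.5 and oocyte-like cells from 9.52 to 57.5, and each of these ranges overlapped the next.

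The WT IR library held the highest Ifitm3 value of the 4 in 7 of the 9 named classes, endothelial-like and macrophage-like cells being the exceptions. In granulosa-like cells, which surround and nourish the oocyte, Ifitm3 was 20 CPM in WT non-IR (1447 UMIs), 78.5 in WT IR (6154 UMIs), 17.5 in Chek2-/- non-IR and 18.02 in Chek2-/- IR. The IR to non-IR ratio was 3.93 in WT (3.71 to 4.16) and 1.03 in Chek2-/-. In epithelial-like cells, which include the ovarian surface layer, the levels were 67.3, 353, 62.3 and 67.7 in the same order, a ratio of 5.25 in WT (4.70 to 5.88) and 1.09 in Chek2-/-.

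In oocyte-like cells Ifitm3 was 10.95, 57.5, 9.52 and 11.9 CPM, a ratio of 5.25 in WT (4.604 to 6.01) and 1.25 in Chek2-/-. With every cell thinned to 3000 UMIs it was 10.75 CPM in WT non-IR (6 UMIs, 3.95 to 23.4) and 96.4 in WT IR (35 UMIs, 67.2 to 134). Its level there was 54.5 to 73.3% of that in granulosa-like cells of the same library, while 9 granulosa markers were at 1.51 to 33.5%. Fibroblast markers in oocyte-like droplets were at 1.34 to 3.34% of their fibroblast-like level, and Ifitm3 was at 5.14 to 22.1% of its own. Endothelial-like cells held more Ifitm3 than either class, at 968 CPM in WT non-IR and 1019 in WT IR. The part of granulosa, fibroblast or endothelial RNA in the oocyte-like values was not tested. In the subcluster led by Tmsb4x and Serpinb6a with the granulosa gene Gatm, Ifitm3 reached 174 CPM in 28 WT IR cells, and in the subcluster of RNA-rich WT IR oocytes it was 50.6.

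**Figure D3:**
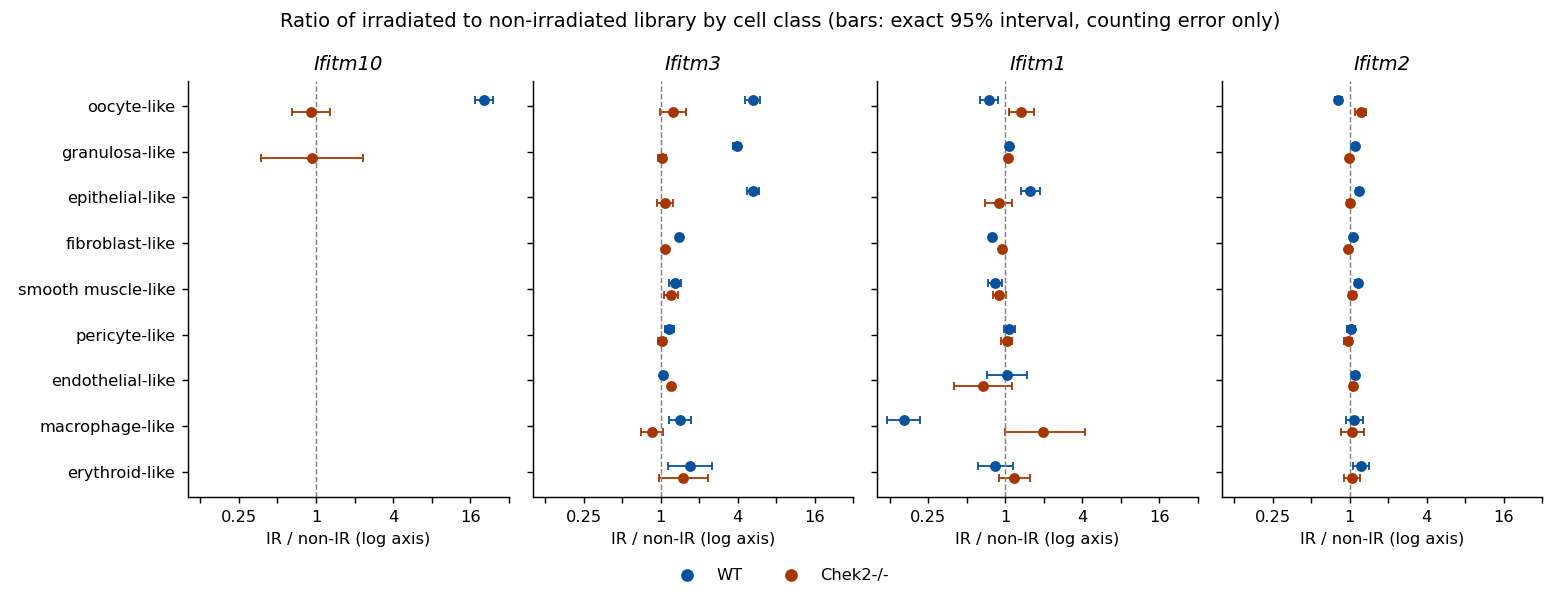
Ratio of the irradiated to the non-irradiated library (x axis, log scale) for each Ifitm gene by cell class (y axis), blue for WT and brown for Chek2-/-, with exact 95% intervals for counting error; a ratio is drawn where both libraries held at least 10 UMIs. Ifitm10 reaches 20.4 in WT oocyte-like cells, Ifitm3 lies at 3.93 to 5.25 in WT oocyte-like, granulosa-like and epithelial-like cells and at 1.03 to 1.25 in the same Chek2-/- classes, and Ifitm2, without thinning of cells, lies between 0.817 and 1.23 in every class drawn.

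Other somatic classes differed less in Ifitm3. Fibroblast-like cells, the most numerous class of the stroma, had 187 CPM in WT non-IR and 261 in WT IR, a ratio of 1.396, and 185 and 202 in Chek2-/-, a ratio of 1.09. Erythroid-like cells had 72.3 and 122 CPM in WT, from 41 and 80 UMIs (ratio 1.69, 1.15 to 2.53), and 64.3 and 96.5 in Chek2-/- (ratio 1.501, 0.979 to 2.36). The vascular classes with the most Ifitm3 were nearly level: endothelial-like cells had 968 and 1019 CPM in WT (ratio 1.05) and a larger ratio, 1.21, in Chek2-/-, and pericyte-like cells had 917 and 1073 in WT.

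In each of 8 granulosa-like subclusters Ifitm3 was higher in the WT IR than in the WT non-IR library. These values describe 1 library per condition, and their intervals cover counting error only. The subclusters were drawn on cells that include these differences, and the chemokine gene Cxcl10 was not among the genes kept out of clustering. In the subcluster led by Amh, a hormone of growing follicles, and Fgfbp3, the level of Ifitm3 was 60.7 CPM in WT IR and 13.2 in WT non-IR. In the one led by Mgp and the interferon-inducible chemokine Cxcl10 it was 130 and 25.5, and in the one led by Akr1c18 and Myl9 it was 167 and 51.5. The dividing subcluster led by Ube2c and Top2a had 49.8 and 21.7. Chek2-/- libraries lay between 11.2 and 55.4 CPM in all subclusters.

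**Figure D4:**
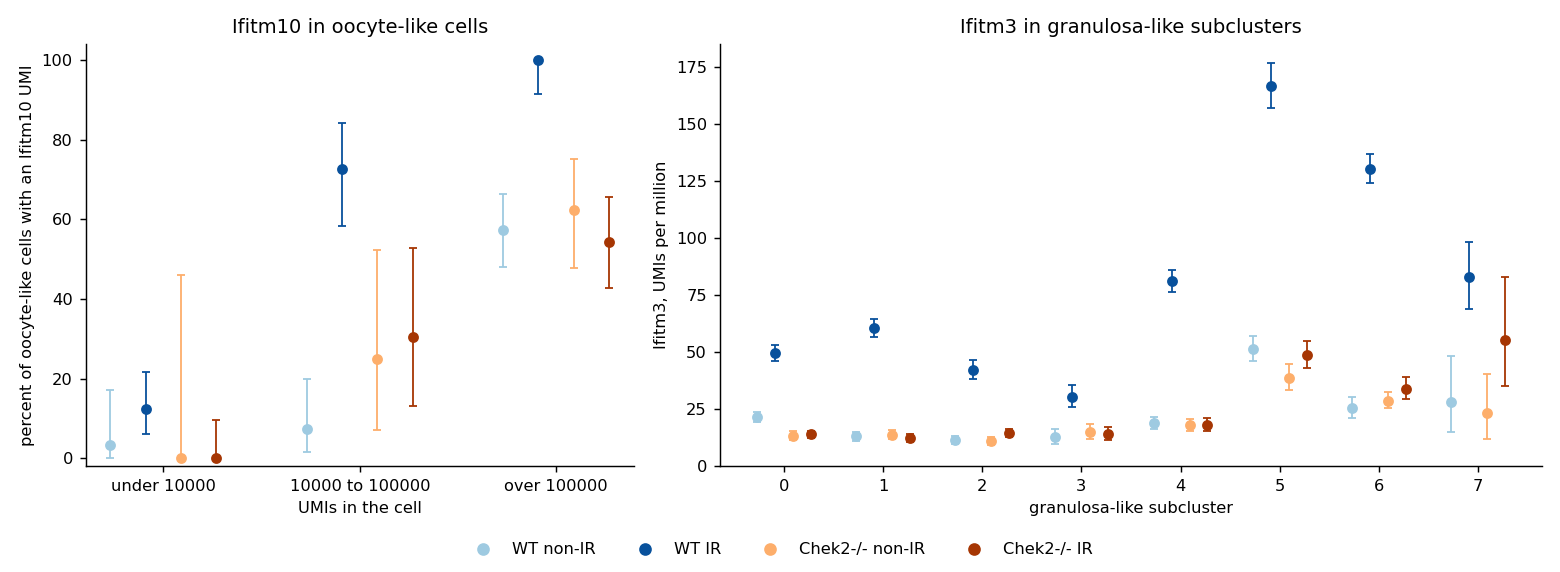
Left, the percent of oocyte-like cells with an Ifitm10 UMI (y axis) by UMIs in the cell (x axis), with exact binomial 95% intervals; right, Ifitm3 CPM (y axis) in the 8 granulosa-like subclusters (x axis), with exact Poisson 95% intervals. All 41 WT IR oocyte-like cells with over 100000 UMIs had an Ifitm10 UMI, and Ifitm3 is highest in the WT IR library in each granulosa-like subcluster.

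Ifitm1 and Ifitm2 also differed in level between classes. Ifitm2 ranged from 896 to 1027 CPM in fibroblast-like and from 897 to 985 in pericyte-like cells, ranges that overlap, then from 755 to 865 in endothelial-like, 639 to 737 in smooth muscle-like, 562 to 692 in erythroid-like, 518 to 615 in granulosa-like, 365 to 431 in epithelial-like, 307 to 449 in macrophage-like and 59.3 to 102 in oocyte-like cells. Ifitm1 was highest in pericyte-like cells, at 494 to 627, followed by fibroblast-like cells at 247 to 312, and was low in endothelial-like cells, at 8.51 to 15.6, where Ifitm2 and Ifitm3 were high. In fibroblast-like cells Ifitm1 was lower in WT IR (247) than in WT non-IR (312), a ratio of 0.792, and in epithelial-like cells it was higher (60.02 against 38.2). In oocyte-like cells the direction differed between all UMIs and thinned cells, which leave out shallow cells and weight each cell equally. Of these cells, 39 in WT IR and 8 in WT non-IR lay in a shallow subcluster whose leading genes include Sparc and Col1a1 (median 3885 UMIs per cell). Over all UMIs of oocyte-like cells, granulosa markers summed to 810 CPM in WT non-IR and 300 in WT IR. Fibroblast markers went the other way, at 198 and 303 CPM. The part of granulosa or fibroblast RNA in oocyte-like cells was not tested. Ifitm2 was 101.5 CPM in WT non-IR and 82.9 in WT IR over all UMIs, but 111 (62 UMIs, 85.2 to 142) and 229 (83 UMIs, 182 to 283) in cells thinned to 3000 UMIs. Ifitm1 was 21.2 and 15.8 over all UMIs, and 17.9 (10 UMIs, 8.59 to 32.96) and 30.3 (11 UMIs, 15.1 to 54.2) in thinned cells, with intervals that overlap. In macrophage-like cells it was 389 in WT non-IR from 312 UMIs in 77 cells, 26 of them with a UMI, and 63.0 in WT IR from 59 UMIs.

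Over 31 class and library sums with at least 50 cells, the level of Ifitm2 had r of 0.69 with Ifitm3 and 0.59 with Ifitm1, and Ifitm10 had r of −0.73 with Ifitm2. The points share libraries and cells of a class, so r describes the class pattern. The genes most like Ifitm10 over these sums were D630023F18Rik (0.91), Zc3h3, Plcxd1, Galnt6 and the tight junction gene Tjp3 (0.87), and those most like Ifitm3 were Hivep2 (0.94), the endothelial receptor Acvrl1, Sav1, Pea15a and Selenof (0.92). Those most like Ifitm2 were Selenon (0.98), Zcchc24, Tfpi, Capn2 and Ddah2, and those most like Ifitm1 were Vstm4 (0.92), 1500009L16Rik, Gfra2, G0s2 and Psd3.

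The interferon pathway, whose targets include Ifitm3, was read through gene lists chosen with earlier results of these data known. In bulk, 0 of 35 interferon effector genes passed edgeR's test in WT IR ovaries, 10 had an unadjusted p under 0.05 (11.4% of all genes did), and DESeq2 called 2 and limma-voom 3, all higher (2.1 and 1.59% of all genes). The log2 change was positive for 33 of 35, with a median of 0.51 against 0 over all genes. Summed effectors were 866 CPM in WT non-IR library 5 and 504 to 551 CPM in the other 5 of that group. Without that library, left out after its sum was seen, 4 of 35 were called higher (1.4% of all genes were), with a median of 0.87. Leaving out the non-IR library with the highest sum tends to raise these changes, so that count is not a test of them. The WT IR library with the highest sum, at 964 CPM, was kept. In Chek2-/- ovaries 31 of 35 were positive with a median of 0.39. That median was −0.08 when both Chek2-/- libraries numbered 6 were left out, a choice made after seeing the data. Of the 35, 7 were then called higher in WT IR ovaries, where 558 of 26480 genes (2.11%) were: Dhx58, Eif2ak2, Rtp4, Irgm1, Tap1, Oas1a and Oas2. Their log2 changes ran from 0.47 for the kinase Eif2ak2 (adjusted p = 0.00585) to 1.94 for the RNA sensor Oas1a (edgeR adjusted p = 0.0214). The WT libraries were the same, and these changes hardly moved while their SEs fell. For Dhx58 the change was 0.85 (SE 0.26) with all libraries and 0.86 (SE 0.16) under that choice. Irf9 of the signalling list was called higher as well under that choice (0.54, adjusted p = 0.00433), with the same change of 0.54 in all libraries. With all libraries edgeR called none of 6 receptors, 9 signal carriers and 5 brakes of the pathway, of which 0, 3 and 1 had an unadjusted p under 0.05 (11.4% of all genes), and DESeq2 called 1 signal carrier.

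Of 9 interferon genes listed, 2 had enough reads to be tested in bulk. Ifnl2, a lambda interferon of the type that acts on epithelia, had 0 reads in all 18 libraries outside WT IR and 3 to 10 reads in each of the 6 WT IR libraries, 41 in all (0.292 ± 0.135 CPM), at least 14.5-fold higher than the 3 reads over the WT non-IR group that a count of 0 allows. It passed the filter on low counts through the WT IR group alone, so no p is given for it. Ifne, the epithelial interferon of the reproductive tract, was 0.0142 CPM in WT non-IR and 0.134 CPM in WT IR ovaries (adjusted p = 0.235). Ifnl3, which was not tested, had 5 reads in WT IR and 1 in WT non-IR ovaries. The near-identical Ifnl2 and Ifnl3 may share reads. In single cells, 97 Ifnl2 UMIs were counted in oocyte-like cells of the WT IR library (7.22 CPM), and none in any other class or library.

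The effectors were also counted by cell class. The filter sums both libraries of a pair, so a gene can pass it through the irradiated library alone. The all-gene shares use the same filter. Counting genes with at least 10 UMIs in the pair of libraries, 27 of 33 effectors were at least 2-fold higher in WT IR epithelial-like cells (4.29% of all genes were) and 1 of 27 in Chek2-/- (1.92% of all genes). In granulosa-like cells they were 19 of 33 in WT (3.58% of all genes) and 2 of 32 in Chek2-/- (2.01%). In oocyte-like cells they were 15 of 30 in WT (10.9% of all genes) and 2 of 21 in Chek2-/- (4.52%), and in fibroblast-like cells 6 of 32 in WT (2.28%) and 1 of 30 in Chek2-/- (2.56%). In endothelial-like cells, with high Ifitm3, they were 0 of 29 in WT (2.25% of all genes) and 2 of 29 in Chek2-/- (2.34%), and in pericyte-like cells 1 of 21 (2.27%) and 3 of 23 (3.08%). The ubiquitin-like effector Isg15 was 657 CPM in WT IR epithelial-like cells against 36.7 in WT non-IR, and 37.0 against 1.77 in granulosa-like cells. Summed effectors of oocyte-like cells were 257.5 CPM in WT non-IR and 298.3 in WT IR, and 2 of the 30 were at least 2-fold lower. In granulosa-like cells the sums were 1109 and 1662.

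**Figure D5:**
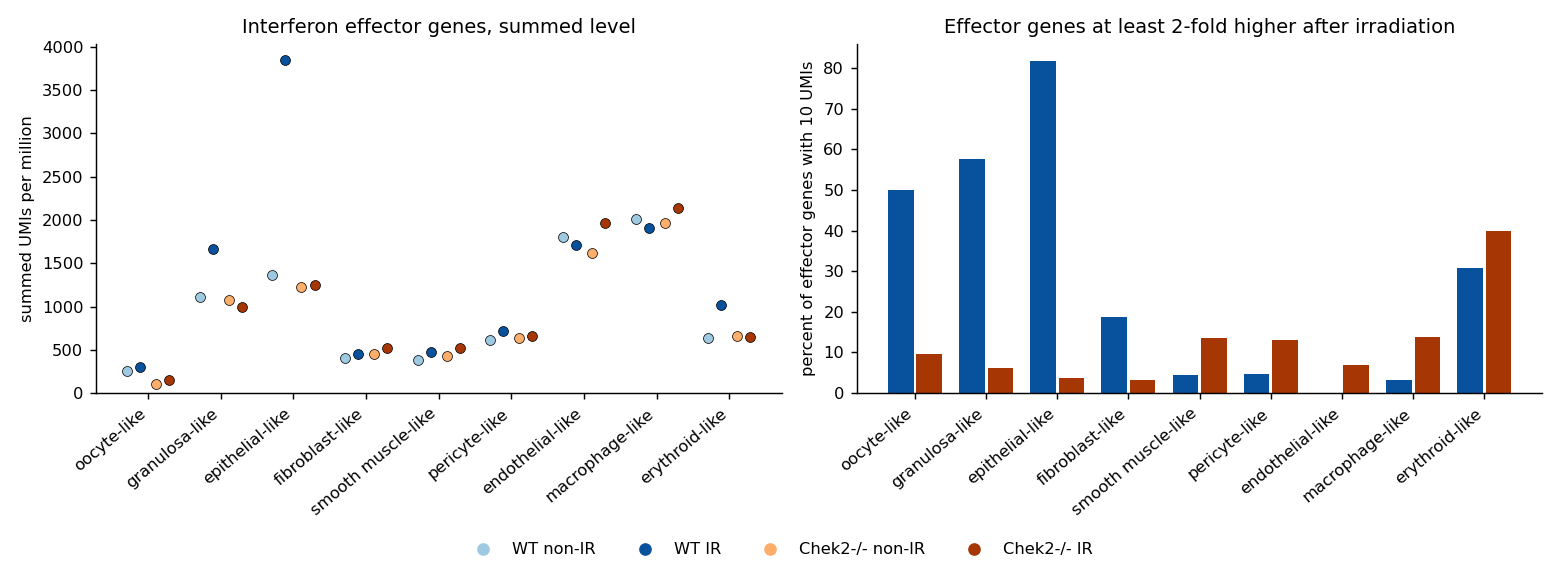
Left, summed CPM of the interferon effector genes (y axis) by cell class (x axis) in the 4 libraries; right, the percent of effector genes with at least 10 UMIs that were at least 2-fold higher in the irradiated library (y axis), blue for WT and brown for Chek2-/-. Epithelial-like cells reach 3846 in WT IR against 1367 in WT non-IR, with 27 of 33 effector genes at least 2-fold higher.

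A list of 18 p53 target genes was measured beside Ifitm10. It was chosen with earlier results of these data known, so its counts are not a fresh test. In bulk, 13 of 18 rose in WT IR ovaries (median log2 change 1.22, with 1.53% of all genes called higher) and 2 of 18 in Chek2-/- ovaries (median 0.16, with 0.0112% of all genes called), and for 13 the change differed between genotypes (1.03% of all genes). Those with the smallest adjusted p for the difference were Ccng1 (1.47), Mdm2 (1.31), Eda2r (1.25) and the BH3-only gene Pmaip1 (2.50). In single cells, 12 of 18 targets were at least 2-fold higher in WT IR oocyte-like cells (10.9% of all genes were), 13 of 18 in granulosa-like (3.58%), 12 of 18 in fibroblast-like (2.28%) and 9 of 17 in epithelial-like cells (4.29%). In Chek2-/- they were 0 of 17 (4.52% of all genes), 3 of 18 (2.01%), 0 of 17 (2.56%) and 0 of 16 (1.92%) in the same order. The WT counts were above the all-gene share in each of these classes. On the same IR to non-IR ratio, Ifitm10 was 20.4 in WT oocyte-like cells. It was 5.33 in granulosa-like (52 and 9 UMIs), 6.02 in fibroblast-like (30 and 5 UMIs) and 2.24 in epithelial-like cells (7 and 2 UMIs). In Chek2-/- the ratios were 0.911, 0.929, 0.761 and 0.974 in the same order. The part of oocyte RNA in the somatic values was not tested.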

How the data were processed

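Bulk mRNA of 24 ovary pairs (4 groups of 6) and 4 single-cell libraries were analysed. The authors quantified bulk reads with Salmon (1.3.0 in the submitters' processing notes) against a reference transcriptome and deposited estimated counts per gene, which were rounded to whole numbers. The single-cell files hold UMI counts per gene and cell that the authors deposited from Cell Ranger. Reads were not reprocessed.

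Bulk genes with at least 10 counts in all were fitted in one edgeR (4.0.16) quasi-likelihood model over the 4 groups, with TMM scaling and Benjamini-Hochberg adjustment over 26790 genes; CPM are TMM-scaled. Members and gene lists were chosen with earlier results of these data known. Replicates differed by more than sampling noise. Named genes were the members, the 5 nearest protein-coding genes on each side, the 5 genes most like each member, and at most 4 called genes of a list by smallest adjusted p; Zdhhc20, Nedd4, Setd7, Fyn, Isg15, Ifne, Irf9 and the 7 effectors called without the libraries numbered 6 were named as examples after their values were seen. Bulk precision is limited by 17824920 to 32605519 reads per library; intervals and floors of 3 counts cover counting error only.

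Cells with at least 1000 genes, at most 20% mitochondrial and 50% ribosomal UMIs were kept, predicted doublets were removed (4.47 to 5.56%), and cells were clustered with scanpy (1.11.5; 2000 variable genes, 30 components, 15 neighbours, Leiden resolution 0.5), with 102 genes (the members and the family, interferon and p53 lists) kept out. Classes were named "like" from marker lists. DESeq2 (1.42.0), limma-voom, other scalings and filters, left-out libraries, doublets kept and thinned cells were the alternatives. Scripts were tested on simulated data.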

Additional observations from a re-analysis of the deposited data

Results flagged for a closer look

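Dixon's criterion was applied to 32 sets of 6 values, from the members and summed gene lists in the same 4 groups of bulk libraries. In 12 of these sets 1 library lay apart from the other 5. The sets share libraries, and Chek2-/- IR library 6 was flagged in several. Chance meets the criterion in about 1 set in 20 for independent, normally distributed values. These values share libraries, so the 12 cannot be set against that rate. Among the members, the Chek2-/- IR library 6 was high in Ifitm1 (66.4 CPM) and Ifitm3 (173 CPM), and the Chek2-/- non-IR library 6 in Ifitm3 (115 CPM). The summed interferon effector genes were 1400 CPM in Chek2-/- IR library 6 and 866 CPM in WT non-IR library 5. Summed oocyte markers were low in Chek2-/- IR library 6 (1320 CPM) and Chek2-/- non-IR library 6 (1170 CPM), and summed epithelial markers were high in Chek2-/- IR library 6 (654 CPM). Summed neutrophil markers were high in Chek2-/- IR library 2 (1330 CPM), WT IR library 3 (1300 CPM), Chek2-/- non-IR library 5 (9.8 CPM) and WT non-IR library 2 (10.1 CPM).

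The irradiation change differed between the genotypes, by edgeR's test of the interaction, in Ccng1 (1.47 on the log2 scale, adjusted p = 8.12e-13), Mdm2 (1.31, adjusted p = 4.1e-11), Eda2r (1.25, adjusted p = 9.4e-08), Pmaip1 (2.50, adjusted p = 2.01e-06) and the cluster's neighbour Pkp3 (2.93, adjusted p = 3.64e-05). Ccng1, Mdm2, Eda2r and Pmaip1 came from a list chosen with earlier results of these data known, so their p values are not a fresh test.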

How the results depend on the processing

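The change of Ifitm10 in WT ovaries stayed between 4.02 and 4.31 on the log2 scale when any 1 library was left out, and its difference between genotypes between 4.12 and 4.41. Ifitm3 stayed between 0.27 and 0.41 in WT, and its difference between genotypes between 0.13 and 0.59, the highest without Chek2-/- IR library 6. Small changes turned sign: Ifitm3 in Chek2-/- ovaries was −0.01 by limma-voom, −0.13 without both libraries numbered 6, and −0.25 to 0.20 with 1 library left out; the cause was not tested. With 1 library left out, Ifitm1 ranged from −0.03 to 0.14 in WT, from −0.36 to 0.03 in Chek2-/- and from −0.10 to 0.16 between genotypes (−0.10 without both numbered 6). Likewise Ifitm2 ranged from −0.13 to 0.05 in Chek2-/- and from −0.01 to 0.19 in the difference, and Ifitm10 from −0.21 to 0.06 in Chek2-/-. Genes called between genotypes without irradiation numbered 1430, 2423 by DESeq2, and 573 (without WT non-IR library 4) to 1794 with 1 library left out; 675, 716 and 807 were called without WT non-IR library 2, WT non-IR library 3 and Chek2-/- non-IR library 1. DESeq2 called 14 genes in Chek2-/- and 458 for the difference. Leaving out both libraries numbered 6, chosen after seeing the data, gave 1009 calls in WT.

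Same-numbered libraries had r of 0.02 to 0.47 in WT, where 1 of 6 correlated best with its own number, and of 0.05 to 0.70 in Chek2-/-, where 4 of 6 did; not every pair was over 0.1, so the numbers were not taken as pairing the samples. With the replicate block 661 genes were called in WT, 4 in Chek2-/-, 281 for the difference and 2025 between genotypes; the WT change of Ifitm10 was 4.19 and that of Ifitm3 0.31 (SE 0.16).

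In single cells, thinning gave a WT Ifitm10 ratio of 59.95 in oocyte-like cells, resting on 1 UMI in WT non-IR. The WT Ifitm3 ratio in granulosa-like cells was 3.195 with doublets kept, 3.635 at Leiden resolution 1.0 and 4.254 thinned. In Chek2-/-, thinned Ifitm3 ratios were 1.149 in granulosa-like and 1.119 in fibroblast-like cells, and Ifitm2 in fibroblast-like cells was 1.008 in place of 0.973.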

Other observations

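In the WT IR library, oocyte-like cells held 8 Ifnl3 UMIs (0.595 CPM) beside those of Ifnl2. Of Ifnlr1, from the receptor for these lambda interferons, 32 to 41 UMIs were counted per library in granulosa-like cells and 4 to 8 in epithelial-like cells. These are counts and not levels. The classes held 72356870 to 86853669 and 5183635 to 8113966 UMIs of all genes per library. Ifng was counted in macrophage-like cells with 1, 0, 3 and 9 UMIs in WT non-IR, WT IR, Chek2-/- non-IR and Chek2-/- IR.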
